A study of Mus musculus with 20 samples.

Results

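Inositol, fructose and polyol metabolism was followed here through 9 genes, taken by symbol from the 55822 genes of the deposited mouse kidney table. The set was chosen by gene symbol and selected on the puberulic acid against control changes in these libraries. It holds Miox, Slc5a3, Slc5a11, Impa1, Isyna1, Khk, Sord, Akr1b3 and Slc2a5, and all 9 were found and passed the filter on low counts. Bulk RNA sequencing of poly(A) RNA from whole kidney was done in 20 samples from C57BL/6J mice, an inbred strain, all of them males of 8 weeks. The 4 groups of 5 received phosphate-buffered saline (PBS, the control), a normal or a toxic lot of the supplement Choleste-Help, or puberulic acid, a tropolone made by some Penicillium moulds. The puberulic acid mice received 1 mg per day in 6 daily administrations, and kidneys were taken on day 7. The design text gives the oral route, while the protocol names both gavage and injection into the peritoneum. The control and puberulic acid columns were compared, and the 2 supplement lots are not analysed here because 10 column names do not say which lot they hold. The labels number the samples within a group without tying them to separate animals, so p-values measure the spread between these samples.

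The kidney takes up, makes and burns myo-inositol. It is a cyclic polyol that serves as an osmolyte in the medulla and as the head group of phosphoinositide lipids. In the proximal tubule myo-inositol oxygenase (Miox) opens the ring to glucuronate, which a chain of reductases and dehydrogenases turns into xylulose 5-phosphate. The polyol route reduces glucose to sorbitol with aldose reductase (Akr1b3) and oxidises sorbitol to fructose with sorbitol dehydrogenase (Sord), and ketohexokinase (Khk) then commits fructose to breakdown. Sord also oxidises xylitol in the glucuronate route, so it belongs to both.

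Upstream sequence was matched for 7 of the 9 genes in RefSeq's mouse promoters (GRCm38.p6): Miox, Slc5a3, Slc5a11, Isyna1, Khk, Sord and Slc2a5. The 250 bases before the RefSeq start are printed 5′ to 3′ for the gene with the largest decrease, for the fructose kinase, which also fell, and for the inositol transporter that was not called. Capitals mark every match, on either strand, to the motifs described after the sequences, where N stands for any base.
Miox, chr15:89334223-89334472, plus strand: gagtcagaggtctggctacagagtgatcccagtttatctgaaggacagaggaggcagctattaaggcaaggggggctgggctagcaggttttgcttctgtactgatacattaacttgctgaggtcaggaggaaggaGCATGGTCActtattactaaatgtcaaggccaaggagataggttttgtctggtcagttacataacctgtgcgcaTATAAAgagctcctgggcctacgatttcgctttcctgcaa
Khk, chr5:30921309-30921558, plus strand: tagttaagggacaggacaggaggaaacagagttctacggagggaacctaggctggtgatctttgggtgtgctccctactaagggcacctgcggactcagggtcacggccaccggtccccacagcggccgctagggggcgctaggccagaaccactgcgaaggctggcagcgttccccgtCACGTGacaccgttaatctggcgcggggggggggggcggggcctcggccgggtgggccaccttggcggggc
Slc5a3, chr16:92058072-92058321, plus strand: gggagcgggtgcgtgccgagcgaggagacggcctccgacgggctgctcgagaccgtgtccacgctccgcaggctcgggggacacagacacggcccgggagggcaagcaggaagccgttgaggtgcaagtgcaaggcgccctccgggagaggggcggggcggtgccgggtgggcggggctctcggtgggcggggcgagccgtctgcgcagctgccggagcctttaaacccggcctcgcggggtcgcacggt
CACGTG, the E-box, a palindrome, lay 71 to 66 bases before the Khk start and is in 6.02% of the 32851 promoters of the same length. TATAAA lay 40 to 35 bases before the Miox start (12.4% of promoters), and TGACNNNGC, the core of the antioxidant response element, lay there from 114 to 106 on the minus strand (10.2%). A further motif searched, TGGAAA, the core of the element read by the tonicity factor NFAT5, was in none of the 7 windows and is in 18.6% of promoters. None of the matches overlapped another. GENCODE M21 places the Miox start 75 and the Khk start 128 bases further upstream than RefSeq does, so part of both windows is transcribed in that annotation, while the 2 annotations share the Slc5a3 start.

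Libraries held 18409877 to 24705587 estimated counts. The Benjamini-Hochberg adjusted edgeR quasi-likelihood test called 65.3% of the 16266 genes tested at an adjusted p under 0.05, 34.2% higher and 31.1% lower with puberulic acid, and for 50.1% the lowest value of one group lay above the highest of the other. CPM are counts scaled by library size and by edgeR's TMM factors (trimmed mean of M-values). Control libraries had factors of 0.827 to 0.848 and treated ones of 1.17 to 1.26, and scaling to total counts in their place moved the median log2 fold change of all genes tested from 0.05 to 0.56. Puberulic acid replicate 1 had the highest level of its group in 7 of the 9 genes, and control replicate 1 the lowest of its group in 6. The log2 fold change without these 2 libraries is given beside that of each of the 9 genes. The 9 genes were chosen with the puberulic acid results known, so their changes are a description, no p-value is given for them, and nothing is read from how many were called.

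Of the 9 genes, 5 were called lower (Miox, Slc5a11, Khk, Sord and Slc2a5), 1 higher (Akr1b3), and 3 were not called (Slc5a3, Impa1 and Isyna1). The 6 called genes were also the 6 whose group ranges lay apart. The median log2 fold change of the 9 was -1.37, beside 0.05 over all genes tested. Scaling to total counts called all 9, 4 higher and 5 lower, and over all genes tested called 9179 genes higher and 2526 lower, against 5564 and 5058 with TMM.

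**Figure D1:**
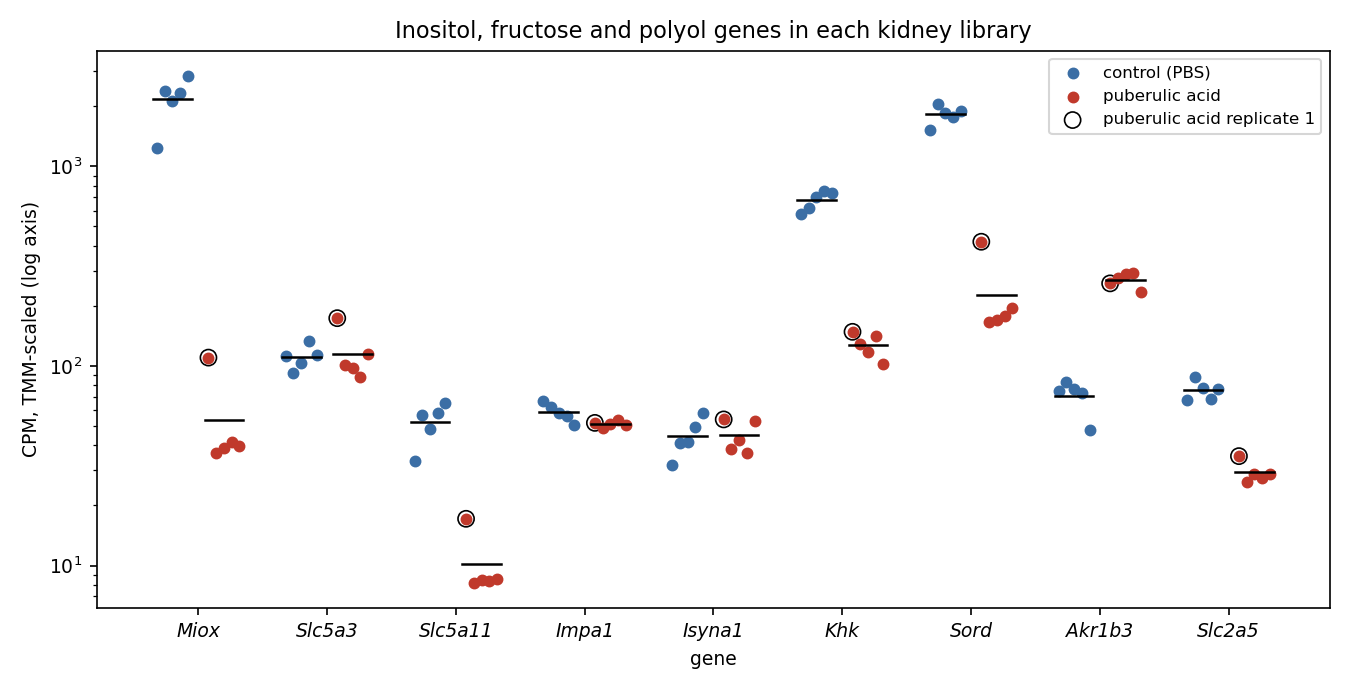
Level of each of the 9 genes in every library, in CPM on a log axis, with 5 control (blue) and 5 puberulic acid (red) libraries and black lines at the group means. The groups lie apart for Miox, Slc5a11, Khk, Sord, Akr1b3 and Slc2a5 and overlap for Slc5a3, Impa1 and Isyna1. The circled replicate 1 is the highest puberulic acid library for Miox at 110.1 CPM.

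Miox (ENSMUSG00000022613, chromosome 15), which carries out the first and committed step of inositol breakdown, showed the largest decrease of the 9. Control replicates 1 to 5 had 1232, 2396, 2131, 2319 and 2835 CPM, and puberulic acid replicates 1 to 5 had 110.1, 36.8, 38.9, 41.4 and 39.7 CPM. The lowest control lay far above the highest treated library, and replicate 1 was the low one of the controls and the high one of the treated group. The mean went from 2183 ± 591 to 53.4 ± 31.8 CPM (SD, n = 5 per group). The fitted log2 fold change was -5.35 ± 0.39 (SE), a 40.9-fold decrease, and it was -5.96 in the fit without replicate 1 of both groups. Of all genes tested, 3.78% were called lower by at least 4-fold.

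Slc5a11 (ENSMUSG00000030769, chromosome 7) encodes SMIT2, the sodium-coupled inositol carrier of the proximal tubule brush border. Its controls had 33.3, 56.9, 48.4, 58.0 and 64.9 CPM, and the puberulic acid libraries had 17.1, 8.22, 8.43, 8.35 and 8.58 CPM. As for Miox, replicate 1 was lowest among controls and highest among treated libraries, and replicates 2 to 5 of the treated group lay within a narrow band. The log2 fold change was -2.36 ± 0.24 (SE), and -2.77 without replicate 1 of both groups.

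The other sodium-coupled inositol carrier, SMIT1, is the product of Slc5a3 (ENSMUSG00000089774, chromosome 16), a gene known for its induction by high tonicity through NFAT5. Slc5a3 had 112, 92.7, 104, 134 and 114 CPM in controls and 174, 101, 97.7, 87.9 and 114 CPM after puberulic acid. Apart from replicate 1 at 174 CPM, the treated libraries lay within or just under the range of the controls. The log2 fold change was 0.04 ± 0.17 (SE), its sign turned to -0.18 without puberulic acid replicate 1 and to -0.16 without replicate 1 of both groups, and total-count scaling gave 0.55, close to the 0.56 of the median gene under that scaling. In GENCODE M21 Slc5a3 overlaps Mrps6, a mitochondrial ribosomal protein gene of the same strand. Mrps6 had 96.5 ± 12.02 CPM in controls and 95.8 ± 4.92 CPM after puberulic acid (SD, n = 5 per group), and how reads shared by the pair were divided is not stated in the sources used here.

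Inositol is also made from glucose 6-phosphate by the synthase Isyna1 (ENSMUSG00000019139, chromosome 8) and freed from its phosphate by the lithium-sensitive phosphatase Impa1 (ENSMUSG00000027531, chromosome 3). Isyna1 had 31.7, 41.3, 41.6, 49.6 and 58.0 CPM in controls and 54.0, 38.5, 42.5, 36.5 and 52.7 CPM after puberulic acid, so the treated libraries fell inside the control range. Its log2 fold change of 0.01 ± 0.16 (SE) was -0.10 without control replicate 1, -0.17 without replicate 1 of both groups and 0.53 with total-count scaling. Impa1 had 67.0, 62.3, 58.2, 55.9 and 50.5 CPM in controls and 51.9, 49.1, 51.0, 53.7 and 50.8 CPM after puberulic acid. Its treated libraries sat at the low end of the controls, with a log2 fold change of -0.20 ± 0.08 (SE), or -0.16 without replicate 1 of both groups. Impa1 was called lower in 5 of the 17 other fits, among them DESeq2 and the fit without puberulic acid replicate 1, and it was called higher, at 0.31, with total-count scaling.

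Sord (ENSMUSG00000027227, chromosome 2) had the second largest decrease. Controls had 1528, 2055, 1842, 1772 and 1902 CPM, and puberulic acid libraries had 419, 167, 170.0, 177 and 196 CPM. The groups lay far apart, with replicate 1 again low among controls and high among treated libraries. Its log2 fold change was -3.01 ± 0.26 (SE), and -3.42 without replicate 1 of both groups.

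Akr1b3 (ENSMUSG00000001642, chromosome 6), the aldose reductase that makes sorbitol, was the one member that rose. Controls had 74.7, 82.9, 76.7, 72.8 and 47.7 CPM, and puberulic acid libraries had 259, 276, 289.6, 292 and 234 CPM. Every treated library was above every control, and replicate 1 of each group lay among the others. The mean went from 71.0 ± 13.5 to 270.02 ± 23.96 CPM (SD, n = 5 per group), and the log2 fold change was 1.93 ± 0.14 (SE), or 1.95 without replicate 1 of both groups. An antisense gene model opposite to Akr1b3 in GENCODE M21, Gm14546, had 0.475 ± 0.106 CPM after puberulic acid (SD, n = 5) and 0 counts in the controls.

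Khk (ENSMUSG00000029162, chromosome 5) phosphorylates fructose, and the table does not separate its 2 splice forms. It had 577, 619, 699, 751 and 733 CPM in controls and 148, 129, 117, 141 and 103 CPM after puberulic acid. The groups lay apart, and the treated libraries, replicate 1 included, were close together. The log2 fold change was -2.40 ± 0.12 (SE), and -2.52 without replicate 1 of both groups. Slc2a5 (ENSMUSG00000028976, chromosome 4) encodes GLUT5, the fructose carrier of the brush border. It had 67.4, 88.1, 78.0, 68.3 and 76.3 CPM in controls and 35.3, 26.2, 28.8, 27.5 and 28.8 CPM after puberulic acid, again with no overlap. Its log2 fold change of -1.37 ± 0.11 (SE) was the smallest of the 5 decreases, and it was -1.49 without replicate 1 of both groups.

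Levels of different genes were compared per kilobase of the principal transcript of GENCODE M21. In controls Miox was highest at 1932 ± 523 CPM per kb, followed by Sord at 774 ± 82.3 and Khk at 427 ± 47.3 CPM per kb (SD, n = 5 each), and the ranges of these 3 did not touch. Akr1b3 came next at 51.2 ± 9.76 CPM per kb. Slc2a5 at 23.9 ± 2.66, Isyna1 at 23.2 ± 5.16 and Slc5a11 at 21.8 ± 5.06 CPM per kb did not differ beyond their spread. Impa1 followed at 14.0 ± 1.497 and Slc5a3 at 10.2 ± 1.40 CPM per kb, with Impa1 above Slc5a3 in each of the 5 controls although the ends of their ranges met. Impa1 also overlapped Slc5a11. With puberulic acid the order changed at the top, where Akr1b3 stood first at 195 ± 17.3 CPM per kb, then Sord at 96.0 ± 46.2, Khk at 80.6 ± 11.5 and Miox at 47.2 ± 28.1 CPM per kb (SD, n = 5 each). The ranges of Sord, Khk and Miox overlapped, and Sord reached into the range of Akr1b3 through replicate 1, at 178 CPM per kb. Isyna1 followed at 23.4 ± 4.22, Impa1 at 12.3 ± 0.407, Slc5a3 at 10.52 ± 3.13 and Slc2a5 at 9.29 ± 1.11 CPM per kb. Slc5a3 overlapped both Impa1 and Slc2a5, and Slc5a11 was lowest at 4.23 ± 1.63 CPM per kb.

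Ratios within a library do not depend on library scaling. The ratio of Akr1b3 to Sord per kb, the 2 steps of the polyol route, was 0.0829, 0.0684, 0.0706, 0.0697 and 0.0425 in controls and 1.05, 2.80, 2.89, 2.79 and 2.02 with puberulic acid. Per kb Sord was thus above Akr1b3 in every control and below it in every treated library, by a small margin in replicate 1. Without division by length, puberulic acid replicate 1 had more Sord (419 CPM) than Akr1b3 (259 CPM). The ratio of Slc5a3 to Slc5a11 per kb went from 0.358 to 0.742 in controls to 2.22 to 2.93 with puberulic acid. Per kb, the higher of the 2 inositol carrier genes was thus Slc5a11 in every control and Slc5a3 in every treated library. In CPM, Slc5a3 was above Slc5a11 in every library, with 92.7 to 134 against 33.3 to 64.9 CPM in controls. Their order in controls thus depends on the transcript lengths used. The ratio of Miox, which burns inositol, to Isyna1, which makes it, went from 65.8 to 98.2 in controls to 1.27 to 3.46 with puberulic acid.

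**Figure D2:**
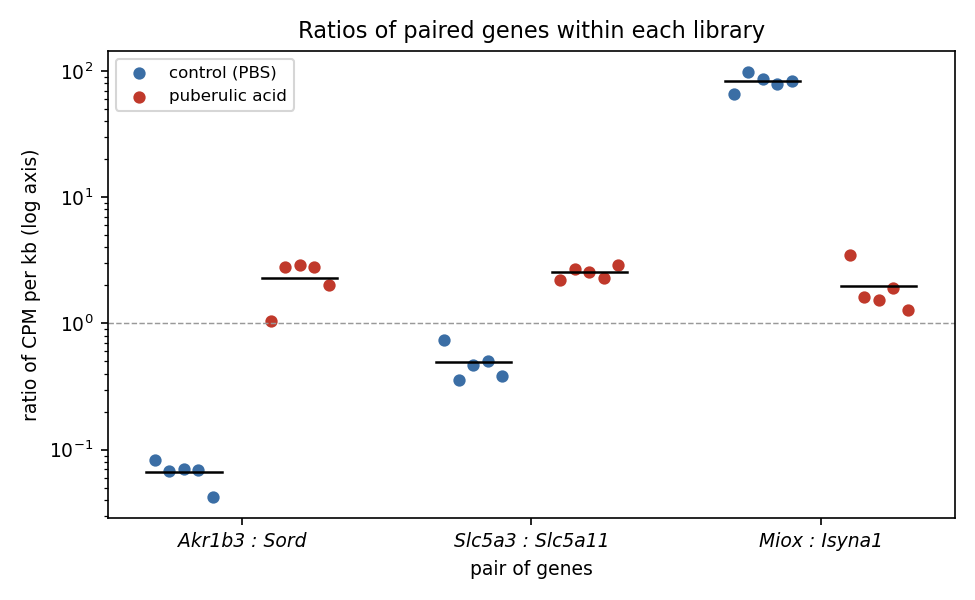
Ratios of CPM per kb within each library for 3 pairs of genes on a log axis, with 5 controls in blue, 5 puberulic acid libraries in red, black lines at the group means and a dashed line at equal levels. Akr1b3 to Sord crosses that line, from at most 0.0829 in controls to at least 1.05 with puberulic acid, and so does Slc5a3 to Slc5a11. Where the line falls depends on the transcript lengths used.

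Markers of the proximal tubule moved with these decreases. All 8 markers on the list were called lower, and their summed level was 7975 to 11484 CPM in controls and 408 to 1179 CPM after puberulic acid. In bulk RNA, fewer proximal tubule cells and less RNA per cell cannot be told apart. Per 100 CPM of these markers, Miox went from 15.5 to 26.7 CPM in controls to 7.12 to 9.34 CPM after puberulic acid. The other 4 genes called lower moved the other way on this scale, with all treated libraries above all controls. Sord went from 18.1 ± 0.577 to 38.1 ± 2.58, Khk from 6.77 ± 0.819 to 24.3 ± 8.48, Slc5a11 from 0.515 ± 0.0797 to 1.77 ± 0.251 and Slc2a5 from 0.755 ± 0.0605 to 5.48 ± 1.495 CPM per 100 CPM of the markers (SD, n = 5 per group). The marker list moved by more than these 4 genes and by less than Miox, and its part in the result was not tested. Markers of other kidney cells are given beside the 31.1% of all genes tested that were called lower. All 5 collecting duct principal cell markers were called lower, with sums of 524 to 799.997 CPM in controls and 259 to 312 CPM after puberulic acid. Of the distal convoluted tubule markers 3 of 4 were called lower (818 to 1256 and 244 to 838 CPM summed), and of the intercalated cell markers 3 of 5 (236 to 316 and 100.3 to 251 CPM summed). The sums overlapped for the thick ascending limb (2 of 4 lower, 2850.2 to 5145 and 2999 to 5710 CPM), podocytes (1 of 5 lower, 227 to 495 and 109 to 437 CPM) and endothelium (2 of 5 lower, 159.8 to 267 and 81.0 to 212 CPM), and narrowly for the distal convoluted tubule and intercalated cells.

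The genes were also compared by how they varied among libraries of one group. Deviations from the group mean of log2(CPM + 1) were correlated with those of Miox over the 10 libraries. Among the 9620 protein-coding genes whose mean reached 10 CPM, the 3 most like Miox were Slc5a11 (Pearson r = 0.99, Spearman rho = 0.95), Gjb1 (r = 0.98, rho = 0.89) and Neu1 (r = 0.98, rho = 0.94). Gjb1 encodes the gap junction protein connexin 32 and Neu1 a lysosomal sialidase. Puberulic acid replicate 1 and control replicate 1 were the 2 libraries farthest out for Miox. Without puberulic acid replicate 1, and with its group mean taken anew, r was 0.98 for Slc5a11, 0.93 for Gjb1 and 0.93 for Neu1. Control replicate 1 stayed in these values. These genes were picked as the top of 9620, so r is a description of these libraries and has no p-value. Among the other members r with Miox was 0.92 for Sord, 0.77 for Slc2a5, 0.72 for Isyna1, 0.67 for Slc5a3, 0.66 for Khk, -0.30 for Akr1b3 and -0.38 for Impa1. Leaving out puberulic acid replicate 1 in the same way gave 0.78 for Sord, 0.53 for Slc2a5, 0.76 for Isyna1 and 0.53 for Khk. It gave -0.05 for Slc5a3, -0.40 for Akr1b3 and -0.75 for Impa1, so the r of Slc5a3 rested on that library. How far r rests on both far libraries together was not tested. The same 2 libraries had the lowest control and the highest treated sum of proximal tubule markers, 7975 and 1179 CPM, and all genes of a library share its depth and scaling.

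**Figure D3:**
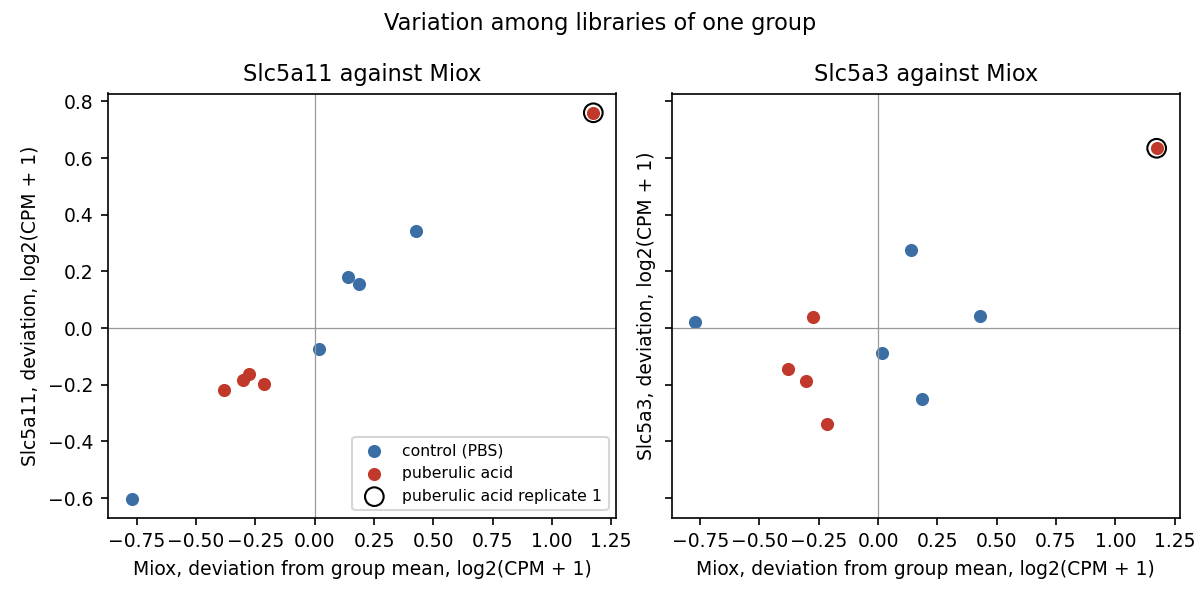
Deviation of each library from the mean of its group on the log2(CPM + 1) scale, for Slc5a11 (left) and Slc5a3 (right) against Miox, with controls in blue, puberulic acid in red and puberulic acid replicate 1 circled. Over the 10 libraries r is 0.99 for Slc5a11, with the circled library far from the other 4 treated ones, which lie close together, while the relation of Slc5a3 to Miox (r = 0.67) becomes -0.05 without the circled library.

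The list of the glucuronate and xylulose route holds the enzymes after Miox and those of UDP-glucuronate and vitamin C synthesis. Of its 8 genes, 6 were called lower and 1 higher, against 31.1% and 34.2% of all genes tested, and their median log2 fold change was -1.28. The proximal tubule markers moved with this list (8 of 8 lower, median -3.27), and their part in the result was not tested. In 7 of the 17 other fits 5 were called lower: total-count scaling, no filter, the replicate block, and the fits without control replicate 1, control replicate 3, puberulic acid replicate 3 or puberulic acid replicate 5. Without replicate 1 of both groups 6 were called lower, and Xylb was at -2.99, Dcxr at -2.76 and Cryl1 at -2.49. Xylb, the kinase that ends the route, went from 474 ± 41.3 to 70.1 ± 18.8 CPM (SD, n = 5 per group), and the log2 fold change was -2.76 ± 0.16 (SE, edgeR adjusted p = 7e-08). Dcxr, which reduces xylulose to xylitol, changed by -2.48 ± 0.18 (SE) and Cryl1, the gulonate dehydrogenase, by -2.30 ± 0.14 (SE). Akr1a1, which reduces glucuronate, fell from 2127 ± 167 to 685 ± 80.8 CPM (SD, n = 5 per group). It lies outside the naming rule, as do the next 3 genes, and was chosen after its value was seen because it completes the route. Ugdh, which makes UDP-glucuronate, was the gene called higher, with a log2 fold change of 0.62 ± 0.11 (SE), while Ugp2, one step before it, changed by -0.92 ± 0.09 (SE). Gulo, the last enzyme of vitamin C synthesis, was near the bottom of the range at 1.19 ± 0.375 and 0.774 ± 0.258 CPM and was not called.

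All 8 tested genes of the fructose list, which holds carriers, breakdown enzymes, the gluconeogenic phosphatase Fbp1 and the sugar-responsive transcription factor gene Mlxipl, were called lower, beside 31.1% of all genes tested, with a median log2 fold change of -2.11 against 0.05 over all genes. The 8 proximal tubule markers, all called lower, had a median of -3.27, and their part in the result was not tested. Like the other pathway lists, this one was chosen with results of these data known. Slc2a7 was not tested because no library had more than 3 counts. Fbp1 went from 969 ± 116 to 125 ± 66.1 CPM (SD, n = 5 per group), and its log2 fold change of -2.95 ± 0.28 (SE, edgeR adjusted p = 2.46e-06) was the largest decrease of the list. Glyctk, the glycerate kinase, changed by -2.45 ± 0.24 (SE). The decrease of Glyctk was close in size to the -2.40 of Khk. With total-count scaling 6 of the 8 were called lower and none higher, where 2526 of the 16266 genes tested were called lower and 9179 higher. Without replicate 1 of both groups all 8 were called lower, with Fbp1 at -3.40 and Glyctk at -2.78.

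The relatives of aldose reductase did not move together. Akr1b8, an aldo-keto reductase, rose from 1.93 ± 0.519 to 100.9 ± 15.4 CPM (SD, n = 5 per group), and the log2 fold change was 5.70 ± 0.19 (SE, edgeR adjusted p = 1.69e-09). Its controls had 1.26 to 2.61 CPM and its treated libraries 78.6 to 116 CPM. Akr1b10 fell from 34.3 ± 7.63 to 13.5 ± 1.72 CPM (SD, n = 5 per group), and Akr1b7, at 3.37 ± 1.09 and 3.34 ± 1.30 CPM, was not called. The share of Akr1b8 in the summed CPM of the 4 genes went from 1.78% ± 0.489 to 26.0% ± 2.66 (SD, n = 5 per group), while the sum itself went from 110.6 ± 17.0 to 388 ± 34.2 CPM. In GENCODE M21 transcripts Akr1b3 shares no stretch of 31 bases with the other 3, whereas 7.08% of such stretches of Akr1b8 are in Akr1b10 and 3.09% in Akr1b7, so levels of those 3 are less certain.

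**Figure D4:**
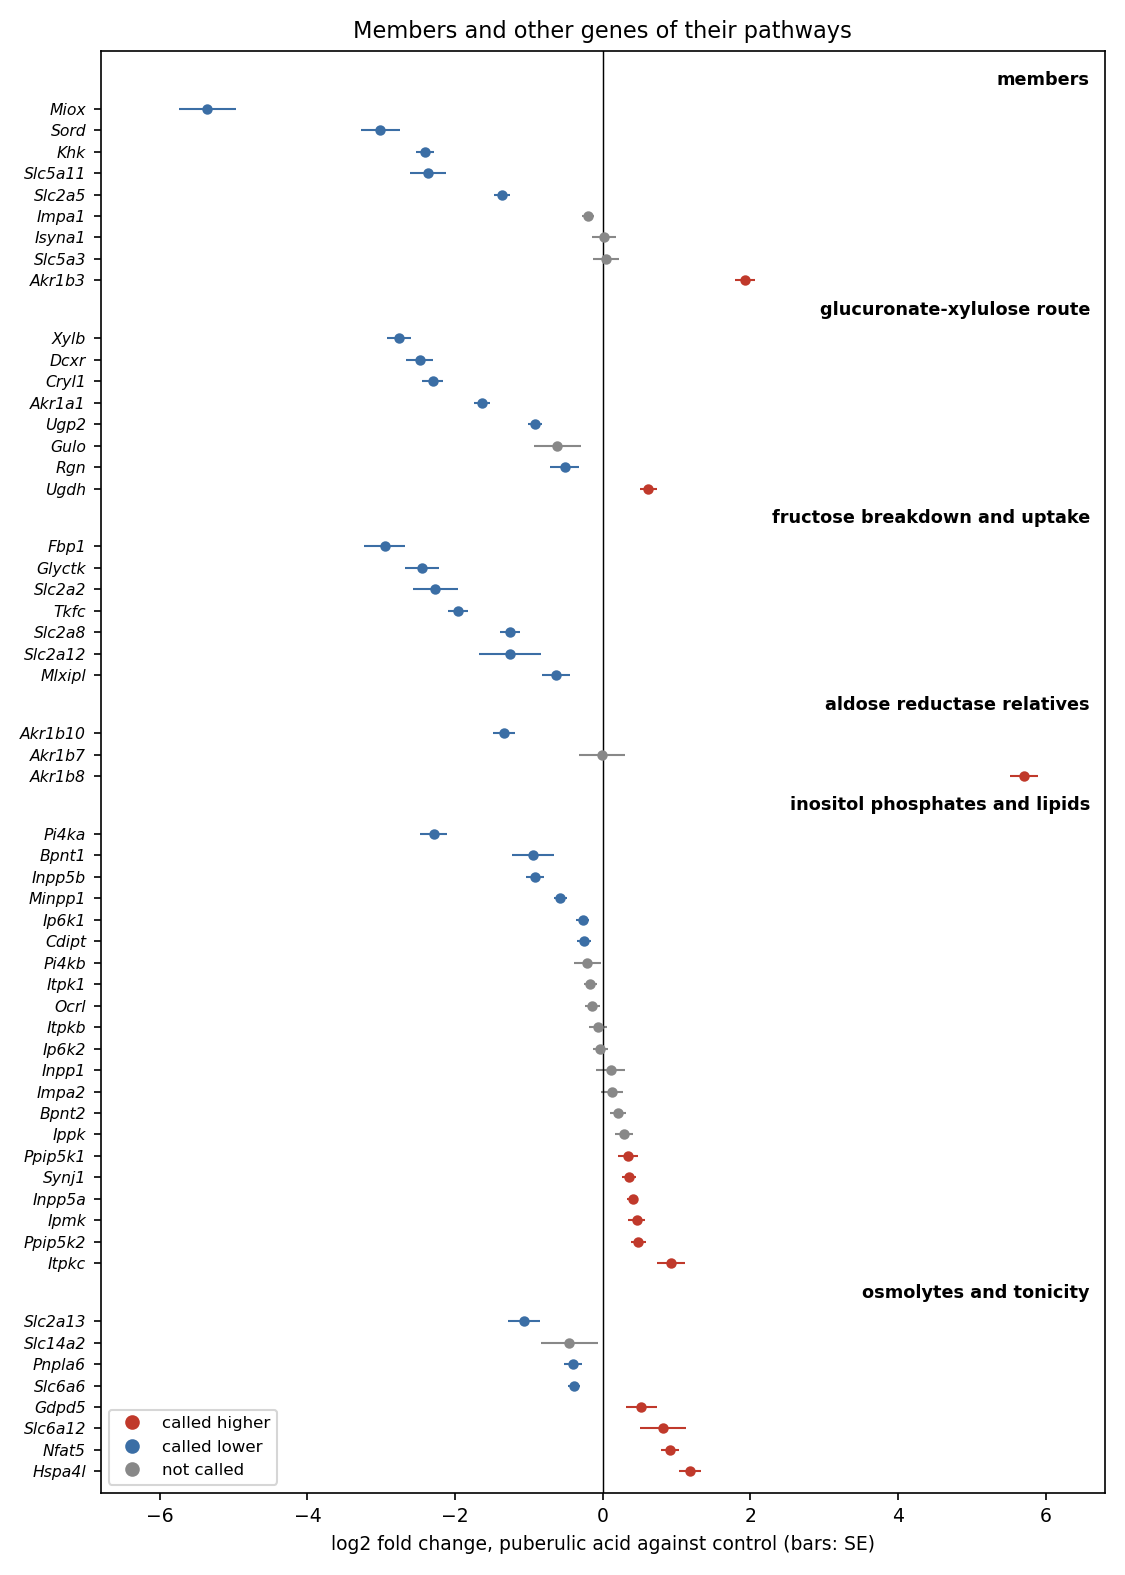
Log2 fold change with puberulic acid against control for the 9 members and for all but 1 of the tested genes of the 5 pathway lists, with bars of 1 SE, coloured by whether the gene was called at an adjusted p under 0.05. The glucuronate and fructose genes lie mainly to the left of 0, Akr1b8 stands at 5.70 on the right, and the inositol phosphate genes spread around 0.

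Markers of macrophages and fibroblasts were read beside Akr1b3 and Akr1b8. Of the macrophage markers, 3 of 5 were called higher, where 34.2% of all genes tested were, and their sum was 75.3 to 179 CPM in controls and 149.7 to 507 CPM after puberulic acid, so the ranges overlapped. Puberulic acid replicate 1 was the treated library inside the control range, at 149.7 CPM, and had 259 CPM of Akr1b3. Of the fibroblast markers, 4 of 5 were called higher, with sums of 96.1 to 141 and 427 to 1547 CPM. Their part in the rise of the 2 genes was not tested. The sums of the 5 lymphocyte markers, at most 3.27 CPM in controls and 3.98 CPM after puberulic acid, and of the 5 neutrophil markers, at most 0.913 and 1.48 CPM, were low in both groups, and Ly6g had 0 counts in every library.

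Of 21 tested genes that turn over inositol phosphates and phosphoinositides, 6 were called higher and 6 lower, shares near the 34.2% and 31.1% of all genes tested, with a median log2 fold change of -0.03, and Itpka was too low to test. Scaling to total counts called 16 higher and 2 lower, where it called 9179 of the 16266 genes tested higher and 2526 lower. Pi4ka, which makes phosphatidylinositol 4-phosphate at the plasma membrane, went from 255 ± 63.4 to 52.2 ± 8.38 CPM (SD, n = 5 per group), and the log2 fold change was -2.29 ± 0.18 (SE, edgeR adjusted p = 6.31e-07). Bpnt1, a nucleotidase of the same lithium-sensitive family as Impa1, changed by -0.94 ± 0.28 (SE, edgeR adjusted p = 0.0104). Its replicate 1 with puberulic acid had 213 CPM, inside the control range of 192 to 255 CPM, against 61.8 to 103 CPM in replicates 2 to 5, and it was not called with total-count scaling (edgeR adjusted p = 0.174). With TMM scaling and without replicate 1 of both groups its log2 fold change was -1.36 (edgeR adjusted p = 1.87e-05). Itpkc, an inositol trisphosphate kinase, rose from 8.32 ± 1.93 to 15.8 ± 2.93 CPM (SD, n = 5 per group). Pi4ka, Itpkc, Xylb and Glyctk each overlap a gene on the opposite strand in GENCODE M21, and the strand setting of the counting is not given in the sources used here.

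Of 8 genes for organic osmolytes and the response to tonicity, 4 were called higher and 3 lower, beside 34.2% and 31.1% of all genes tested. Total-count scaling called 4 higher and 1 lower, beside 9179 and 2526 of the 16266 genes tested. The 4 higher calls became 2 without control replicate 2, control replicate 4, puberulic acid replicate 3 or puberulic acid replicate 5, and 2 with no filter on low counts. They became 3 when 1 of the other 6 libraries was left out. Nfat5, the transcription factor that drives Slc5a3 and Akr1b3 at high tonicity, had 45.8 to 50.2 CPM in controls and 75.4 to 117 CPM after puberulic acid, a log2 fold change of 0.91 ± 0.12 (SE, edgeR adjusted p = 3.07e-05). Hspa4l, a chaperone of the HSP110 family known as an osmotic stress protein, rose from 28.8 ± 6.71 to 65.3 ± 4.35 CPM (SD, n = 5 per group). Slc2a13, a proton-coupled inositol carrier, fell from 7.58 ± 1.38 to 3.61 ± 1.07 CPM (SD, n = 5 per group).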

How the data were processed

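Kidney poly(A) RNA of 5 control and 5 puberulic acid samples was analysed. Values deposited by the authors are estimated counts, 1 row per gene. The submitters' processing notes list fastp 0.22.0, FastQC 0.12.1, MultiQC 1.28, Salmon 1.10.3, DESeq2 and the build GRCm39, without roles; annotation and strand setting are not given in the sources used here. Columns were matched by name, and 10 sample columns were not used. Symbols came from GENCODE M21 (GRCm38) for 51344 of 55822 identifiers.

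Counts were rounded to whole numbers, filtered with filterByExpr, scaled with TMM and tested with edgeR 4.0.16 (glmQLFit, glmQLFTest) in R 4.3.3, with Benjamini-Hochberg adjustment over 16266 genes and a threshold of 0.05. SE was taken as |log2 fold change| / √F. On counts simulated from the control means with 15112 genes tested, 78.2% of 2-fold and 100% of 4-fold changes were recovered, and 4.23% of calls were unchanged genes. Only 87 genes were changed 2-fold and 113 genes 4-fold there. These rates therefore need not hold for the data, where 65.3% of genes tested were called. A floor of 3 counts is 0.0964 to 0.195 CPM, counting error only. The depth of 18409877 to 24705587 counts gave every member at least 193 counts in each library.

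Genes named are the 9 members, the 3 called genes with the largest change in each pathway list (all of a list of 3), and the 3 genes whose deviations from the group mean were most like those of Miox, except that 1 gene of the fructose list is not reported here. Members and lists were chosen with earlier results of these data known. Alternatives were median-of-ratios (RLE) and total-count scaling, testing unfiltered genes, requiring 1 CPM in 5 samples, DESeq2 1.42.0, a replicate block, leaving out each sample, and, added after seeing the data, leaving out replicate 1 of both groups. Same-numbered samples are not paired by the labels.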

Additional observations from a re-analysis of the deposited data

Results flagged for a closer look

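A library was picked out where the gap between it and its nearest neighbour took up over 0.71 of its group's range. This occurred in 15 of the 70 sets of 5 values searched. Chance alone picks out about 5%, or 3.5 sets, for unrelated genes, and these genes are related.

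Puberulic acid replicate 1 was picked out 9 times, each time as the highest of its group. It had 110.1 CPM of Miox, 17.1 CPM of Slc5a11, 419 CPM of Sord, 35.3 CPM of Slc2a5, 56.0 CPM of Dcxr, 104 CPM of Xylb, 213 CPM of Bpnt1, 62.7 CPM of Glyctk and 243 CPM of Fbp1. Control replicate 1 was picked out 3 times. It was the lowest control for Dcxr at 164 CPM, the highest for Akr1b10 at 47.6 CPM and the highest for Sord per 100 CPM of proximal tubule markers at 19.2.

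The other 3 were single values. Control replicate 5 had the lowest Akr1b3 of the controls at 47.7 CPM, control replicate 2 had the highest Glyctk at 218 CPM, and puberulic acid replicate 5 had the lowest Miox per 100 CPM of proximal tubule markers at 7.12.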

How the results depend on the processing

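The number of genes called, of members called and of genes called in each pathway list stayed within 1.5 times the reported value in all 17 alternatives. Members called ran from 6 to 9 over the alternatives that kept all samples and from 6 to 7 over those that left samples out, and 9 were called with total-count scaling, 4 higher and 5 lower. That scaling called 9179 genes higher and 2526 lower, against 5564 and 5058. Of 442 log2 fold changes of named genes under an alternative, 417 kept direction and side of the threshold, 7 passed it, 1 lost it (Bpnt1, -0.44 with total-count scaling) and 17 changed sign, all of these in 4 genes that were not called. Over fits that left out samples Slc5a3 ran from -0.18 to 0.11, Isyna1 from -0.17 to 0.12 and Akr1b7 from -0.22 to 0.15. Slc5a3 was -0.03 without control replicate 2, -0.18 without puberulic acid replicate 1 and -0.16 without replicate 1 of both groups. Impa1 was 0.31 with total-count scaling. Isyna1 ran from -0.10 to -0.02 without control replicate 1, 2 or 3 or puberulic acid replicate 1 or 5, and was -0.17 without replicate 1 of both groups. Akr1b7 was 0.50 with total-count scaling, 0.0018 with the filter of 1 CPM, and 0.01 to 0.15 in 5 fits that left out a sample. The cause was not tested. Same-numbered samples' deviations had a mean correlation of -0.036, and other pairs one of 0.0052. Such values cannot settle whether samples of the same number were handled together. With the replicate block 10325 genes and the same number of members, 6, were called. Depth limits Gulo, which had 13 to 30 counts per library.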
